A study of Homo sapiens with 6 samples.

Results

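HYOU1, SYVN1 and HERPUD1 encode a folding factor and a pair of degradation factors of the endoplasmic reticulum (ER). They were measured in IMR32 cells, an established human neuroblastoma line with an amplified MYCN gene, given 20 µM sAKZ692 or the solvent DMSO for 24 h. The submitters describe sAKZ692 as a compound that activates NRF2, a transcription factor of antioxidant genes, and the comparison asks which transcripts differ from solvent. Each group had 3 RNA-seq libraries of 1 cell line, and the labels do not say whether these came from separate cultures, and p-values here reflect only the spread among these samples, which may be technical. The 3 genes were taken by symbol from a table of 11351 genes, of which 9137 averaged at least 1 TPM (a level corrected for transcript length and set to a fixed total per library) and were tested. All 3 passed that filter.

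These genes were chosen by the same contrast described here. They were named in an earlier description of these libraries, as ER genes higher with the compound. In the present fit the adjusted p-values behind that choice were 0.0045 for HYOU1, 0.0017 for SYVN1 and 0.029 for HERPUD1, out of 24.1% of all tested genes called higher and 8.5% called lower. HERPUD1 missed the threshold under 7 of 16 alternative settings, and HYOU1 and SYVN1 under 0. The values of the 3 genes in this contrast are therefore given as a description.

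Proteins that enter the ER are folded by chaperones and enzymes, and those that fail are sent back to the cytosol, tagged with ubiquitin and destroyed by the proteasome, a route called ER-associated degradation. HYOU1 is a large relative of Hsp70 that helps the main ER chaperone BiP (HSPA5) exchange its nucleotide. SYVN1, also called HRD1, is the membrane ubiquitin ligase at the centre of the route for misfolded lumenal proteins, and HERPUD1 is a short-lived membrane protein with a ubiquitin-like domain that joins the SYVN1 complex. When unfolded proteins build up, the sensors ATF6, IRE1 (ERN1) and PERK (EIF2AK3) start the unfolded protein response, in which ATF6, XBP1 and ATF4 switch on genes of folding and degradation. SYVN1 has also been described, in mouse liver, as a ligase for NRF2.

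HYOU1 (ENSG00000149428.18) lies at chr11:119044189-119057202 on the minus strand, SYVN1 (ENSG00000162298.18) at chr11:65121780-65134533 on the minus strand and HERPUD1 (ENSG00000051108.14) at chr16:56932048-56944863 on the plus strand, in GRCh38 with GENCODE v29. All 3 are protein-coding genes. SYVN1 overlaps its neighbours. Of its 5496 exonic bases, 398 are shared with FAU on the same strand and 356 with MRPL49 on the opposite strand, and HYOU1 shares 666 of 7694 with the antisense gene AP003392.3. Whether strand was used in the quantification is not given in the sources used here, so reads from these shared stretches may have been split between the genes. HERPUD1 shares no exonic base with another annotated gene.

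The promoters are shown because those of HYOU1 and HERPUD1, unlike that of SYVN1, hold exact matches to motifs of the unfolded protein response. SYVN1 holds matches with 1 mismatch, given below. Each line gives the 250 bases before the RefSeq gene start (GRCh38.p14), 5′ to 3′ on the gene's own strand, from chr11:119057206-119057455 for HYOU1, chr11:65134520-65134769 for SYVN1 and chr16:56931892-56932141 for HERPUD1. Capitals mark exact motif matches.
HYOU1: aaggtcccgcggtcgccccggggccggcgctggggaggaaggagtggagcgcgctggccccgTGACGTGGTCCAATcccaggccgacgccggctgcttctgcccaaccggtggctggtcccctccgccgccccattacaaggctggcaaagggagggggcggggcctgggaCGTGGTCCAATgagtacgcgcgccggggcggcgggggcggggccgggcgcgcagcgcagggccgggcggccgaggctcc
SYVN1: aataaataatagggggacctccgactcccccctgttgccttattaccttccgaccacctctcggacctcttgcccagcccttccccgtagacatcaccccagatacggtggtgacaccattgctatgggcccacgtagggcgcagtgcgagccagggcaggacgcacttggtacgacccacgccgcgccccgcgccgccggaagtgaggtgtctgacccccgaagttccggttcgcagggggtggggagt
HERPUD1: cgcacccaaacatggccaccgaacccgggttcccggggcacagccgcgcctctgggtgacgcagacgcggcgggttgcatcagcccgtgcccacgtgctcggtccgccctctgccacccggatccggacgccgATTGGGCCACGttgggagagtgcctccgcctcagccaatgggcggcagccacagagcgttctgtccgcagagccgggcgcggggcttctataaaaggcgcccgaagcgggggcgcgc

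Windows of 250 bases before to 50 after the start were searched on both strands for 5 motifs. These were ERSE (CCAAT, any 9 bases, CCACG) and ERSE-II (ATTGG, any 1 base, CCACG), which ATF6 binds together with NF-Y, and UPRE (TGACGTGG), a site of ATF6 and XBP1. The others were CARE (TGATGNAAT), a site of ATF4 with C/EBP partners, and ARE (TGACNNNGC), the site of NRF2. Counted from the start as base 0, HYOU1 held ERSE-II on the strand opposite its own at -185 to -175 and at -79 to -69. On its own strand it held UPRE at -188 to -181, which overlaps the first ERSE-II. HERPUD1 held ERSE-II on its own strand at -117 to -107. The SYVN1 window held none of the 5, which says only that these letters are not in this window. Of 35116 windows of 27305 genes, 0.0541% held ERSE-II, 0.0769% ERSE, 0.729% UPRE, 0.991% CARE and 13.3% ARE.

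**Figure D1:**
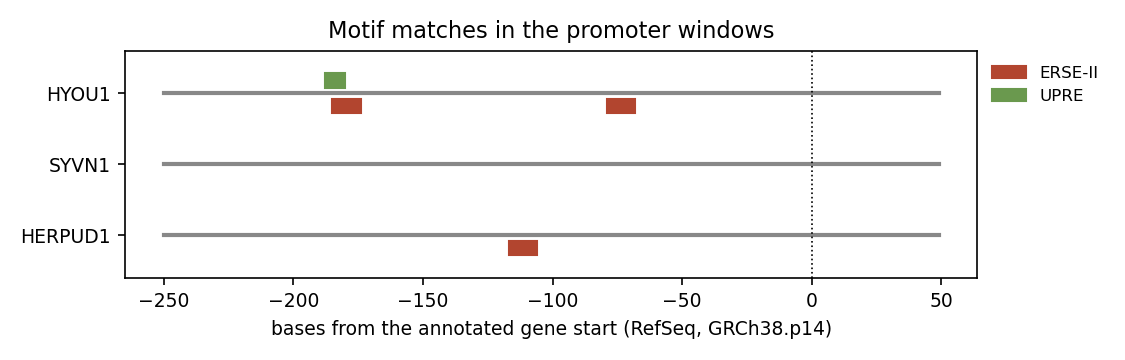
Matches to the searched motifs in the windows of HYOU1, SYVN1 and HERPUD1, by distance in bases from the annotated gene start (dotted line at 0). HYOU1 has ERSE-II at -185 and -79 and UPRE at -188, HERPUD1 has ERSE-II at -117, and SYVN1 has no match to the 5 motifs.

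A search that allowed 1 mismatch in the fixed letters of ERSE and ERSE-II was added after the windows were seen. With it, SYVN1 held an ERSE at -134 to -116 and an overlapping ERSE-II at -126 to -116, HERPUD1 held an ERSE at -83 to -65 and HYOU1 an ERSE at -2 to 16. Of all windows, 1.48% held an ERSE and 1.18% an ERSE-II with exactly 1 mismatch. G and C made up 77.6% of the 250 bases in HYOU1, 63.6% in SYVN1 and 71.6% in HERPUD1, against a median of 58% over all windows. A match is a description of the sequence, and no binding was measured.

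The libraries set limits to all values that follow. Replicate 3 of sAKZ692 stood apart. Over tested genes (not independent replicates) its Pearson's r with sAKZ692 replicates 1 and 2 was 0.971 and 0.972 on log2(TPM + 1). For that pair r was 0.992, and for pairs of DMSO libraries 0.994 to 0.995. The listed genes summed to 61.2% to 65.9% of the TPM scale in sAKZ692 libraries, with the highest in replicate 3, and to 61.7% to 61.9% in DMSO libraries. The table holds no read counts, so the depth behind each value is unknown. MYCN, which is amplified in this line, was at 1376 to 1539 TPM in sAKZ692 libraries and 1347 to 1430 TPM in DMSO libraries. It is 1 of 7 tested neuroblastoma markers, of which 1 (CHGB) rose and 0 fell, beside 24.1% and 8.5% of all tested genes. CHGB averaged 54.7 TPM with sAKZ692 and 26.3 TPM with DMSO (limma adjusted p = 0.0011). CHGA and TH, named after their values were seen, did not pass. CHGA was at 485, 511 and 183 TPM in sAKZ692 replicates 1, 2 and 3, against 271 to 323 TPM with DMSO. TH was at 0.971, 1.00 and 5.24 TPM, against 0.186 to 0.682 TPM with DMSO. Of 13 mesenchymal markers, 6 were in the table, 5 of them tested, and none at 0, and the tested ones summed to 676, 639 and 1451 TPM in sAKZ692 replicates 1, 2 and 3 and to 745 to 795 TPM with DMSO. Most of the sum was vimentin (VIM), at 1334 TPM in replicate 3, and its part in the results was not tested. Of 9 blood and vessel markers, 4 were in the table and 1, CD68, reached the filter, at 2.58 to 3.00 and 1.81 to 3.02 TPM.

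HYOU1, the folding factor, stood at 141, 143 and 123 TPM in sAKZ692 replicates 1, 2 and 3, against 93.0, 100.2 and 94.2 TPM in DMSO replicates 1, 2 and 3. All treated libraries lay above all solvent libraries, as they did for 35.9% of all tested genes. Replicate 3 was the lowest of the treated ones. The means were 136 ± 11.4 TPM with sAKZ692 and 95.8 ± 3.86 TPM with DMSO (SD, n = 3 each), a ratio of 1.42 and a log2 fold change of 0.49 ± 0.08 (standard error, on log2(TPM + 1)). In a bulk sample a higher level can come from more cells with the transcript or from more of it per cell, and these cannot be told apart.

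SYVN1, the ubiquitin ligase, stood at 35.7, 38.5 and 34.6 TPM in sAKZ692 replicates 1, 2 and 3, against 23.3, 22.0 and 22.9 TPM in DMSO replicates 1, 2 and 3. The groups were far apart compared with the spread inside each, and replicate 3 sat close to the other treated libraries. The means were 36.3 ± 1.98 TPM with sAKZ692 and 22.8 ± 0.668 TPM with DMSO (SD, n = 3 each), a ratio of 1.59 and a log2 fold change of 0.65 ± 0.08 (standard error).

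HERPUD1, the SYVN1 partner, stood at 129.6, 135 and 59.8 TPM in sAKZ692 replicates 1, 2 and 3, against 51.9, 50.8 and 44.8 TPM in DMSO replicates 1, 2 and 3. The treated libraries fell into a close pair at a high level and 1 library just above the solvent range. Relative to the DMSO mean they were at 2.64, 2.74 and 1.22 times. The means were 108 ± 41.9 TPM with sAKZ692 and 49.2 ± 3.85 TPM with DMSO (SD, n = 3 each), a ratio of 2.20 and a log2 fold change of 1.04 ± 0.28 (standard error). Without replicate 3 of sAKZ692 the log2 fold change was 1.41, against 0.56 for HYOU1 and 0.68 for SYVN1.

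**Figure D2:**
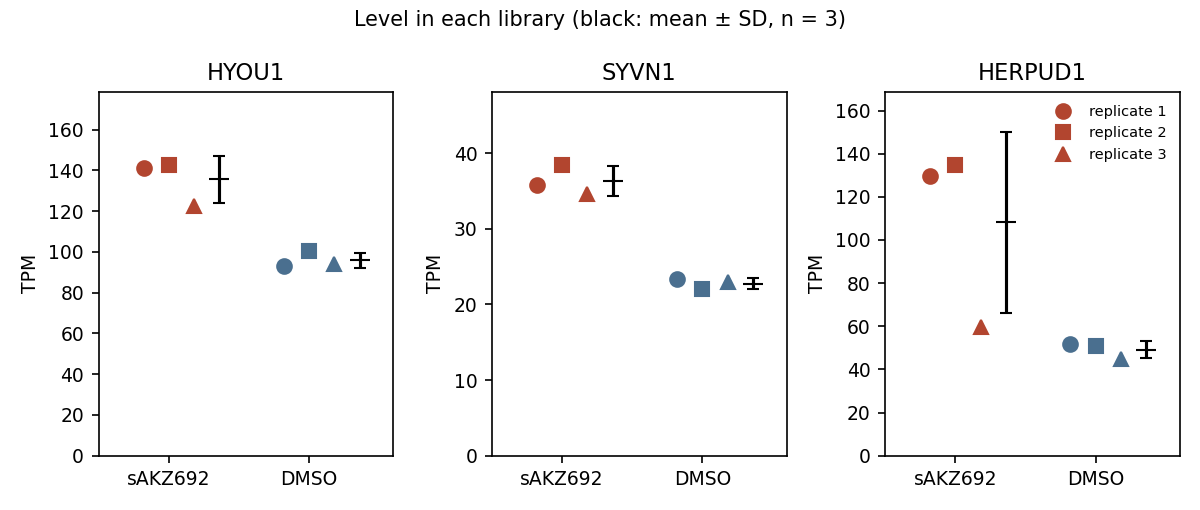
TPM of HYOU1, SYVN1 and HERPUD1 in each library, sAKZ692 in red and DMSO in blue, with the mean ± SD of 3 libraries in black and a separate axis from 0 for each gene. For all 3 genes, chosen as higher in this contrast, every sAKZ692 library is above every DMSO library, as for 35.9% of all tested genes. Replicate 3 of HERPUD1, at 59.8 TPM, is near the DMSO range.

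The order of the levels per transcript length was HYOU1, HERPUD1, SYVN1 in each of the 6 libraries. HYOU1 and HERPUD1 came close to each other with the compound in replicates 1 and 2, where HERPUD1 was at 0.916 and 0.944 of the HYOU1 level. In replicate 3 it was at 0.489 and in the DMSO libraries at 0.475 to 0.558. The ratio of HYOU1 to SYVN1 was lower in every sAKZ692 library, at 3.54 to 3.96, than in every DMSO library, at 3.99 to 4.55. Among all tested genes, the HERPUD1 change from the DMSO mean was above that of 98.2%, 98.6% and 63.1% of genes in sAKZ692 replicates 1, 2 and 3. For HYOU1 these shares were 82.7%, 83.0% and 68.1%, and for SYVN1 86.2%, 89.6% and 81.5%.

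Other genes of ER folding and degradation were read from 5 lists that hold none of these 3 genes. The lists named 110 symbols, including older names of the same gene, of which 66 were in the table and 64 were tested. The lists were drawn up with earlier results of these data known. In limma, 22 of the 64 (34.4%) were higher with sAKZ692 and 3 (4.69%) lower at an adjusted p under 0.05, beside the 24.1% and 8.5% over all tested genes. Their median log2 fold change was 0.22, against 0.14 over all tested genes. In 28 of the 64 every sAKZ692 library lay above every DMSO library and in 3 below, where 35.9% and 14.6% of all tested genes did so. ERO1B, counted as higher, reached the filter only through the sAKZ692 libraries.

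These counts depended on the libraries and on the scaling. Without replicate 3 of sAKZ692, 39 of the 64 (60.9%) were higher and 3 lower, where 34.6% of all tested genes were higher and 14.5% lower. After median-ratio scaling, which sets a typical gene to the same level in every library, 13 of the 64 were higher and 4 lower, where 13.6% and 19.2% of all genes were. Without DMSO replicate 1, 2 or 3, 14, 13 and 14 were higher. Over all 9137 tested genes 1260, 1215 and 1213 were, against 2204 with all libraries. In the lists that follow with 0 genes called lower, 0 were lower at an unadjusted p under 0.05 either, except for 2 of the genes that bring proteins into the ER.

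Among chaperones and partners of Hsp70 and Hsp90 in the ER, 2 of 9 tested genes rose (22.2%) and 0 fell. That share is close to the 24.1% of all tested genes called higher (8.5% lower), and the list's median log2 fold change of 0.14 equals that of all genes. SEC63, a membrane J-protein that brings BiP to the import channel, was at 95.2 ± 9.05 TPM with sAKZ692 and 68.4 ± 5.06 TPM with DMSO (SD, n = 3 each; limma adjusted p = 0.0091), higher in 3 of 3 libraries. HSPA13, a small ER Hsp70 relative, was at 44.6 ± 6.59 and 29.5 ± 1.85 TPM (adjusted p = 0.010). SDF2L1, which works with an ER J-protein, was at 37.9, 41.8 and 17.7 TPM in sAKZ692 replicates 1, 2 and 3 against 32.1 to 34.3 TPM with DMSO. Replicate 3 was thus below all solvent libraries while the other treated libraries were above them. SDF2L1 shares the ERSE-II motif with HYOU1 and HERPUD1. Without replicate 3, 5 of the 9 were higher (34.6% of all tested genes). HSPA5 and HSP90B1 were not analysed here.

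In the lectin chaperones and glycan quality control, 4 of 10 tested genes rose and 0 fell, where 24.1% of all tested genes rose and 8.5% fell. The list's median log2 fold change was 0.15, near the 0.14 of all genes. CANX, the membrane lectin chaperone calnexin, was at 337, 339.8 and 372 TPM in sAKZ692 replicates 1, 2 and 3, against 188, 211 and 193 TPM in DMSO replicates 1, 2 and 3 (log2 fold change 0.82, limma adjusted p = 0.00068). CLGN, a calnexin relative, was at 21.8 ± 1.32 and 13.4 ± 0.220 TPM, and MOGS, the first glucosidase of N-glycan trimming, at 63.3 ± 1.39 and 44.5 ± 1.11 TPM with sAKZ692 and DMSO (SD, n = 3 each; adjusted p = 0.0020 for both). These genes were as high in replicate 3 as in the other treated libraries or close to it. The fourth, PRKCSH, a glucosidase subunit, had a log2 fold change of 0.22 and missed the threshold in 8 of 16 alternatives (adjusted p up to 0.76). Calreticulin (CALR), the soluble partner of calnexin, was at 816, 809.7 and 515 TPM with sAKZ692 and 791 to 815 TPM with DMSO (adjusted p = 0.40).

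Of the disulfide and proline isomerases, 6 of 13 tested genes rose (46.2%) and 0 fell, beside 24.1% and 8.5% of all tested genes. ERO1B, among the 6, was at 0.345 to 0.429 TPM with DMSO and reached the filter only through the sAKZ692 libraries. Its call was lost under 6 of 15 alternatives. At a minimum mean of 5 TPM, which left it out, 5 of 12 were higher. ERP29, a folding factor related to the isomerases, was at 153 ± 2.24 TPM with sAKZ692 and 97.98 ± 3.34 TPM with DMSO (SD, n = 3 each; limma adjusted p = 0.00081). FKBP7, a proline isomerase, was at 56.4 ± 4.07 and 39.2 ± 3.06 TPM (adjusted p = 0.0056), and TMX3, a membrane thioredoxin-like oxidoreductase, at 19.5 ± 1.08 and 13.0 ± 1.39 TPM (adjusted p = 0.0079). ERP44, which retains client proteins, had a log2 fold change of 0.36, and its call was lost under 5 of 16 alternatives (adjusted p up to 0.30). P4HB, the most abundant of the 13, was at 799 to 975 TPM with sAKZ692 and 753 to 818 TPM with DMSO (adjusted p = 0.18). It passed as higher with array weights and without replicate 3 of sAKZ692. PDIA4 was at 142, 153 and 65.1 TPM with sAKZ692 and 124 to 127 TPM with DMSO, so that replicate 3 again lay on the other side of the solvent libraries. Without replicate 3, 12 of the 13 were higher (34.6% of all tested genes were). Without any other single library 3 or 4 were (1213 to 1765 of all 9137 tested genes).

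Of 13 tested genes of the SYVN1 (HRD1) complex and its extraction machinery, 2 rose (15.4%) and 1 fell (7.69%), beside 24.1% and 8.5% of all tested genes. The list's median log2 fold change was 0.16, near the 0.14 of all genes. FAM8A1, which helps to assemble the complex, was at 22.3 ± 2.05 TPM with sAKZ692 and 14.3 ± 0.929 TPM with DMSO, and UBXN4, which ties the extraction ATPase VCP to the ER membrane, at 58.8 ± 4.23 and 43.6 ± 1.91 TPM (SD, n = 3 each; limma adjusted p = 0.0047 and 0.0075). UFD1, a VCP cofactor, was at 132 ± 6.51 and 165 ± 4.63 TPM (adjusted p = 0.011), a call lost without DMSO replicate 3 (0.052). Without replicate 3 of sAKZ692, 6 of the 13 were higher and 1 lower (34.6% and 14.5% of all tested genes).

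SEL1L, the partner that stabilises SYVN1, was at 24.1, 25.2 and 18.4 TPM in sAKZ692 replicates 1, 2 and 3, against 20.8, 18.3 and 18.8 TPM in DMSO replicates 1, 2 and 3, and did not pass (limma adjusted p = 0.26, and 0.011 without replicate 3 of sAKZ692). The ratio of SYVN1 to SEL1L was 1.48, 1.53 and 1.88 with sAKZ692 and 1.12 to 1.22 with DMSO. DERL1, a channel component, was at 66.0 to 81.3 TPM with sAKZ692 and 66.9 to 71.6 TPM with DMSO. It did not pass (adjusted p = 0.40, and 0.033 without replicate 3 of sAKZ692). Its relative DERL2, named after its values were seen, was at 56.5 to 62.4 and 59.1 to 67.9 TPM. DERL2 did not pass either (adjusted p = 0.35, and 0.025, as lower, with median-ratio scaling). HERPUD2, the paralog of HERPUD1, was at 24.1, 26.2 and 19.1 TPM with sAKZ692 and 17.4 to 19.0 TPM with DMSO (adjusted p = 0.080). It had the order of HERPUD1, with replicate 3 just above the solvent range, at a smaller size. The complex's lectin OS9 was not analysed here.

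Among other ER ubiquitin ligases and degradation factors, 8 of 19 tested genes rose (42.1%) and 2 fell (10.5%), beside 24.1% and 8.5% of all tested genes. TMEM129, a RING-type ER ligase, was at 32.4, 31.1 and 28.8 TPM in sAKZ692 replicates 1, 2 and 3, against 15.0, 13.7 and 15.9 TPM in DMSO replicates 1, 2 and 3 (log2 fold change 1.00, limma adjusted p = 0.00073). Both groups were tight. RNF13, a membrane RING protein, was at 49.1 ± 2.54 and 31.0 ± 0.821 TPM with sAKZ692 and DMSO (SD, n = 3 each; adjusted p = 0.0014). UBAC2, a membrane partner of an ER ligase, and RNF170, a RING ligase, had log2 fold changes of 0.43 and 0.57 (adjusted p = 0.0070 and 0.018), with calls lost under 1 and 6 of 16 alternatives. TRIM13, an ER-anchored ligase, and UBE2J2, an ER ubiquitin-conjugating enzyme, both named after their values were seen, fell by 0.32 and 0.31 on the log2 scale (adjusted p = 0.021 and 0.033). Their calls were lost under 4 and 6 alternatives, with highest adjusted p-values of 0.083 and 0.104. Median-ratio scaling left 2 of the 19 higher and 2 lower (13.6% and 19.2% of all tested genes). Omitting a DMSO library left 3 or 4 higher and 0 lower (1213 to 1260 and 404 to 443 of all 9137 tested genes).

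**Figure D3:**
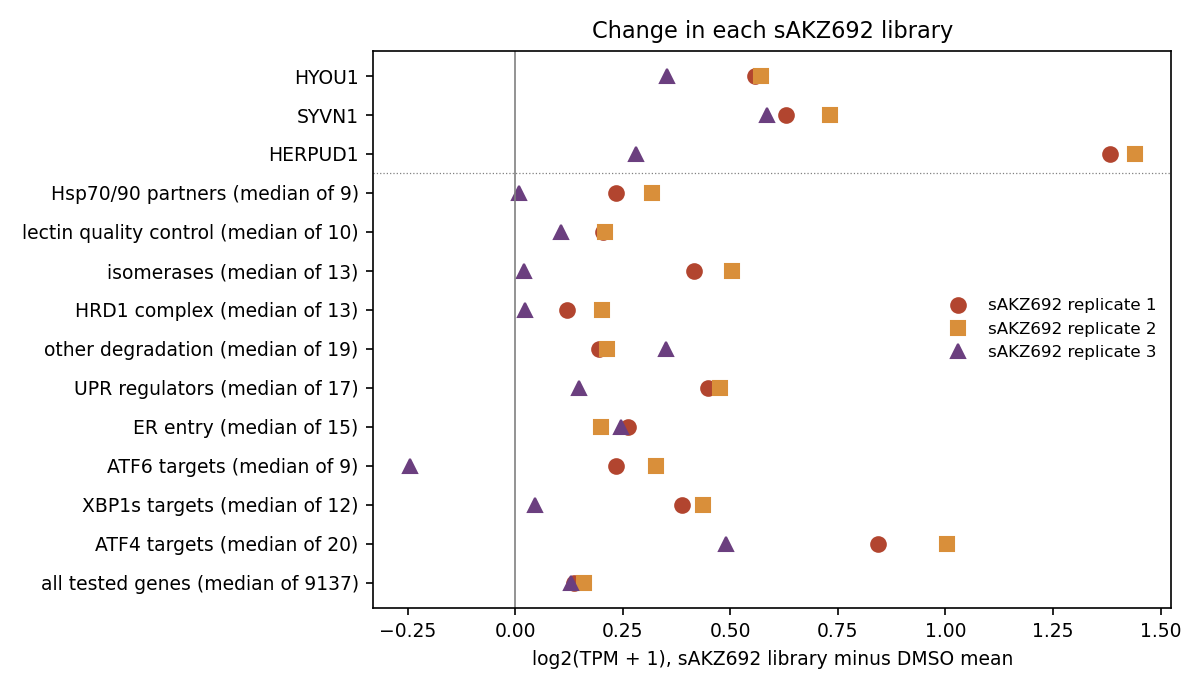
Difference from the DMSO mean on log2(TPM + 1) in each sAKZ692 library, for HYOU1, SYVN1 and HERPUD1 and as the median of each list's tested genes (number in brackets) and of all 9137 tested genes. Replicate 3 (triangles) is at 0.28 for HERPUD1, against 1.38 and 1.44 in replicates 1 and 2, and at 0.58 for SYVN1, against 0.63 and 0.73, while the medians of all genes lie between 0.13 and 0.16.

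Of 17 tested genes of the sensors and transcription factors, 7 rose (41.2%) and 1 fell (5.88%), beside 24.1% and 8.5% of all tested genes. ATF6, the membrane-bound sensor and transcription factor, was at 18.5 ± 0.771 TPM with sAKZ692 and 12.6 ± 0.532 TPM with DMSO, and ATF6B, its relative, at 66.0 ± 9.87 and 35.8 ± 2.18 TPM (SD, n = 3 each; limma adjusted p = 0.0050 and 0.0021). MBTPS1, the protease that first cuts ATF6, was at 44.9 ± 3.72 and 31.6 ± 1.07 TPM (adjusted p = 0.0054). EIF2S1, the translation factor that PERK phosphorylates, fell to 139 ± 20.8 TPM with sAKZ692, against 217 ± 1.28 TPM with DMSO (adjusted p = 0.0048). These 4 calls held under all 16 alternatives. Median-ratio scaling gave 4 of the 17 higher and 4 lower (13.6% and 19.2% of all tested genes). Omitting a DMSO library gave 3 or 4 higher and 1 lower (1213 to 1260 and 404 to 443 of all 9137 tested genes). Omitting replicate 3 of sAKZ692 gave 11 and 3 (34.6% and 14.5% of all tested genes).

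XBP1, the transcription factor that IRE1 activates by splicing, was, like HERPUD1, high in a pair of treated libraries only. It was at 132, 139.7 and 56.7 TPM in sAKZ692 replicates 1, 2 and 3, against 66.6, 71.0 and 64.8 TPM in DMSO replicates 1, 2 and 3, and did not pass (limma adjusted p = 0.18). Without replicate 3 its log2 fold change was 1.00 (adjusted p = 1.1e-05). The table gives gene totals, so spliced and unspliced XBP1 cannot be told apart. DDIT3 (CHOP), a stress factor downstream of PERK, was at 35.7, 43.7 and 16.5 TPM with sAKZ692 and 10.4 to 12.3 TPM with DMSO (adjusted p = 0.016), a call lost without any 1 DMSO library (up to 0.060). ATF4 and EIF2AK3, named after their values were seen, had log2 fold changes of 0.49 and 0.36 (adjusted p = 0.012 and 0.028), lost under 2 and 7 alternatives (up to 0.065 and 0.20).

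Known targets of the 3 transcription factors were read by library, beside 24.1% of all tested genes higher and 8.5% lower. Of 9 tested ATF6 targets other than HYOU1 and HERPUD1, 1 (HSPA13, 11.1%) rose and 0 fell, with median changes of 0.23, 0.33 and -0.25 in sAKZ692 replicates 1, 2 and 3. All 9 were lowest of the treated libraries in replicate 3, as were HYOU1, SYVN1 and HERPUD1, beside 42.0% of all tested genes. The share was 90% of the ATF4 targets, 88.9% of the ER chaperones, 84.6% of the isomerases and 75% of the XBP1 targets. It was 60% of the lectin and glycan list, 53.8% of the SYVN1 complex and 52.9% of the sensors and transcription factors. For other degradation factors it was 52.6% and for genes that carry proteins into the ER 46.7%. Without replicate 3, 7 of the 9 ATF6 targets were higher (34.6% of all tested genes). Of 12 XBP1 targets, 4 rose (33.3%) and 0 fell, among them SSR3, a translocon-associated protein at 188 ± 31.0 TPM with sAKZ692 and 121 ± 2.71 TPM with DMSO (SD, n = 3 each; limma adjusted p = 0.0077). The other 3, SEC23B, SRPRB and SPCS3, had log2 fold changes of 0.46, 0.29 and 0.33, with calls lost under 3, 4 and 6 of 16 alternatives. Median changes were 0.39, 0.44 and 0.05. Without replicate 3, 10 of the 12 were higher (34.6% of all tested genes). Without any 1 DMSO library 1 or 2 were (1213 to 1260 of all 9137). Of 20 ATF4 targets, 16 rose (80%) and 0 fell, with median changes of 0.84, 1.00 and 0.49. SLC7A11, among the 16, was at 0.488 to 0.614 TPM with DMSO and reached the filter only through the sAKZ692 libraries. Without replicate 3, 20 were higher (34.6% of all tested genes), and without any other single library 10 or 11 (1213 to 1765 of all 9137). The lists share genes with those above, and the difference between them was not tested.

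Genes that carry proteins into the ER were also read by library. Of 15 tested genes of the translocon, signal recognition and signal peptidase, 7 rose (46.7%) and 0 fell, beside 24.1% and 8.5% of all tested genes, with median changes of 0.26, 0.20 and 0.25 in sAKZ692 replicates 1, 2 and 3. SEC11C, a signal peptidase subunit, was at 96.5 ± 13.4 TPM with sAKZ692 and 54.1 ± 2.26 TPM with DMSO, and SSR2, a translocon-associated protein, at 491 ± 37.9 and 354 ± 6.09 TPM (SD, n = 3 each; limma adjusted p = 0.0019 and 0.0038). Median-ratio scaling gave 3 of the 15 higher and 3 lower (13.6% and 19.2% of all tested genes). Omitting a DMSO library gave 3 higher (1213 to 1260 of all 9137).

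NFE2L1 (NRF1), an ER-anchored relative of NRF2 that the degradation route draws out of the membrane, was at 240.3 to 253 TPM in sAKZ692 libraries and 217 to 247 TPM in DMSO libraries and did not pass (limma adjusted p = 0.29). NGLY1, the glycanase that edits it, was at 16.7 ± 1.09 and 12.8 ± 0.222 TPM (SD, n = 3 each; adjusted p = 0.020), a call lost under 6 of 16 alternatives (up to 0.25). NFE2L2, which encodes NRF2, was not analysed here.

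**Figure D4:**
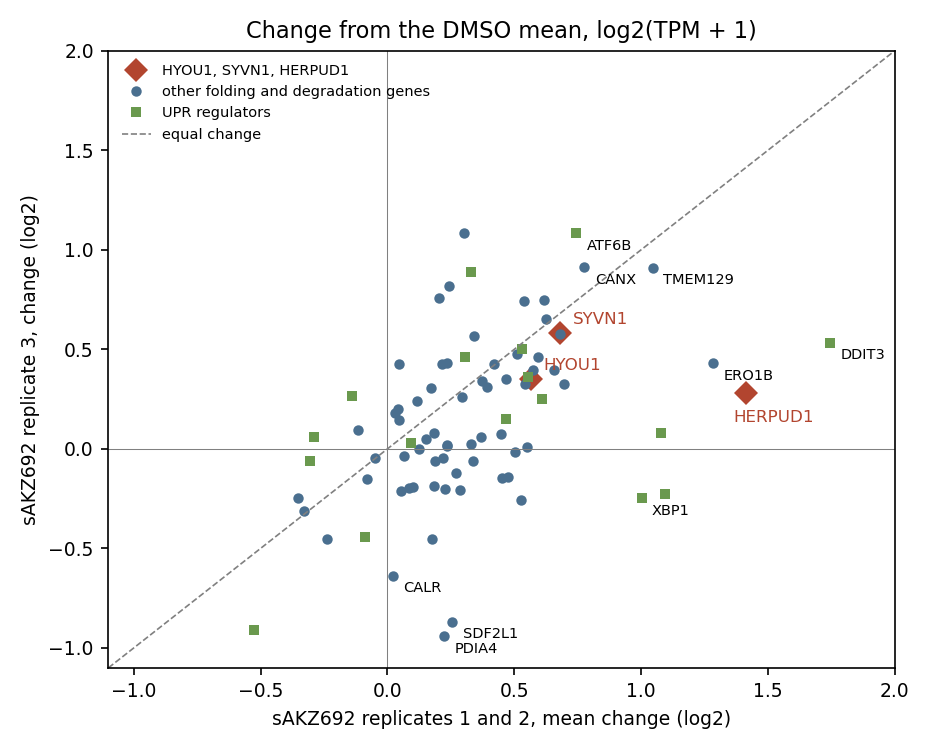
Change from the DMSO mean on log2(TPM + 1) in sAKZ692 replicate 3 (vertical axis) against the mean of replicates 1 and 2 (horizontal axis), for HYOU1, SYVN1 and HERPUD1 (diamonds), 64 other folding and degradation genes (circles) and 17 regulators of the unfolded protein response (squares), with equal change dashed. SYVN1 lies near the dashed line, HERPUD1 far under it beside ERO1B, and CALR, SDF2L1, PDIA4 and XBP1 below 0 in replicate 3.

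The genes most like each of the 3 were found by the root mean square difference of their profiles, set against the DMSO mean, over the 6 libraries. HYOU1 was followed most closely by EPHX1 (microsomal epoxide hydrolase), ASMTL, SLC38A10, PPM1E and CPLX1, at differences of 0.034 to 0.043 on the log2 scale. SYVN1 was followed by TAPBP (tapasin, an ER factor of antigen loading), LRRC8D, RNF13, YIPF6 and SLC22A17, at 0.031 to 0.046. RNF13 is also in the list of other degradation factors. HERPUD1 was followed by STAC2, SEMA4G, SLC43A1, ERO1B and ULBP1, at the wider differences of 0.090 to 0.119. ERO1B, an oxidase that recharges the disulfide isomerases, was at 2.27, 2.56 and 0.886 TPM in sAKZ692 replicates 1, 2 and 3, against 0.428, 0.429 and 0.345 TPM in DMSO replicates 1, 2 and 3. SEMA4G was at 19.9, 22.7 and 11.2 TPM with sAKZ692 and 7.16 to 8.36 TPM with DMSO. These genes were picked for their likeness, so their own differences between the groups are a description.

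Few genes share the ERSE-II motif of HYOU1 and HERPUD1. It lay in the windows of 19 genes, of which 9 were in the table and 5 besides HYOU1 and HERPUD1 were tested. Of these 5, 0 passed limma's threshold and 1 (RUVBL2) had an unadjusted p under 0.05, with log2 fold changes of -0.18 for RUVBL2, -0.12 for SDF2L1, -0.09 for RAD9A, -0.05 for CAMTA1 and 0.16 for NAV2. The ERSE motif lay in the windows of 25 genes, of which 9 were tested, and 3 of these, CANX, EIF2A and ERO1B, were higher and 0 lower, beside 24.1% and 8.5% of all tested genes. At an unadjusted p under 0.05, 6 of the 9 differed. ERO1B reached the filter only through the sAKZ692 libraries, and its call was lost under 6 of 15 alternatives. EIF2A, a translation initiation factor named here for its motif, was at 103 ± 15.5 TPM with sAKZ692 and 74.2 ± 3.57 TPM with DMSO (SD, n = 3 each; limma adjusted p = 0.018). The other 6 did not pass, with log2 fold changes of 0.59 for XBP1, 0.43 for TMEM120A, 0.38 for FICD, 0.27 for SERP1, -0.03 for CRELD2 and -0.20 for CALR.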

How the data were processed

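RNA was sequenced from IMR32 cells on a BGISEQ-500, per the labels' protocols, and quantified with kallisto, per the submitters' processing notes. The sources used here do not give its version, annotation or strand setting. TPM values were deposited by the authors in a single table, whose 6 columns matched the sample titles. Depth is unknown, so no counting interval was computed.

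TPM values were set to log2(TPM + 1), genes with a mean under 1 TPM were left out, and the groups were compared with limma 3.58.1 (R 4.3.3) with a mean-variance trend and Benjamini-Hochberg adjustment over 9137 genes at a threshold of 0.05. Fold changes on this scale understate low genes. The fit was checked on simulated data. The genes, lists and motifs were chosen with earlier results of these data known. The other genes named were HSPA5, HSP90B1, SEL1L, OS9, DERL1, XBP1, ATF6, DDIT3 and NFE2L1, up to 4 genes with the smallest adjusted p past the threshold per list (or 2 with the highest mean where none passed), and the 5 genes most like each member. Others were named after their values were seen, among them SDF2L1, CALR, P4HB, PDIA4 and HERPUD2. Promoter windows came from RefSeq (GRCh38.p14), where all 3 genes matched, and were searched in Python 3.11.15. No protein sequence was used here.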

Additional observations from a re-analysis of the deposited data

How the results depend on the processing

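The log2 fold changes of HYOU1, SYVN1 and HERPUD1 were positive under all 16 alternatives. HERPUD1 missed the threshold under 7 (median-ratio scaling, quantile normalization and leaving out sAKZ692 replicate 1 or 2 or any 1 DMSO library). Median-ratio scaling gave log2 fold changes of 0.31 for HYOU1, 0.47 for SYVN1 and 0.85 for HERPUD1, and quantile normalization 0.52 for SYVN1. Leaving out 1 library gave 0.45 to 0.56 for HYOU1, 0.61 to 0.68 for SYVN1 and 0.83 to 1.41 for HERPUD1. Over all genes, median-ratio scaling gave 1242 higher and 1754 lower, quantile normalization 1073 and 1188, against 2204 and 777 as deposited, and array weights 3267 and 1324. Median-ratio scaling put the median log2 fold change of all genes at -0.03, against 0.14 as deposited. Leaving out 1 library gave 1213 to 3163 higher and 404 to 1321 lower. Of the 64 other folding and degradation genes, median-ratio scaling gave 13 higher, array weights 37, and leaving out 1 library 13 to 39 higher and 0 to 3 lower. PDIA4 was at -0.16 on the log2 scale with all libraries and between -0.39 and 0.22 with 1 left out. SDF2L1 was at -0.12, and between -0.34 and 0.26. Both turned positive without replicate 3 of sAKZ692. Over the 16 alternatives the lowest limma adjusted p was 0.0086 for PDIA4 and 0.019 for SDF2L1. Both of these were calls as higher, opposite in sign to the fit with all libraries. The cause of these shifts was not tested. Of 64 named genes outside the 3, 53 passed and 33 of these passed under every alternative that could be fitted. Many of the 64 were picked because they passed in their list or were like the 3, so the selection fixed much of this count. Over all tested genes 24.1% were higher and 8.5% lower. Some genes named above, such as EIF2A and HERPUD2, are not among the 64.

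Same-numbered libraries of the groups did not deviate together (r = 0.06, -0.02 and 0.04 for numbers 1, 2 and 3). With 3 libraries per group this cannot exclude a pairing, and the labels name none. The main fit used no pairing. With a replicate block 1863 genes were higher and 636 lower, and 20 and 2 of the 64.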
